A study of Mus musculus with 8 samples.

Results

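The genes described here are 43 listed growth factors, growth factor receptors and insulin-like growth factor (IGF) binding proteins, followed in a tumour line and a macrophage line that were grown alone or sharing medium. They were listed by symbol, with earlier results of these data known. Each gene was represented by the probe set annotated to that symbol alone with the highest mean over the 8 arrays. Such a probe set was found for 42 of the 43 genes, out of 18193 genes on the array, and Areg was not analysed here. A gene was tested if it lay above a floor, the 40th percentile of the array (5.21 to 5.28 log2 units), in both arrays of at least 1 group. Of the 42 genes, 34 were tested, out of 13196 tested genes on the array. The 8 untested genes were the ligands Fgf1, Fgf2, Hgf and Bmp4, the receptors Lifr and Osmr, and the binding proteins Igfbp2 and Igfbp3.

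Total RNA was hybridised to 8 single-colour Affymetrix arrays in 4 groups of 2. The groups were RAW co-culture, RAW alone, CT26 co-culture and CT26 alone, where RAW stands for the established mouse macrophage line RAW264 and CT26 for an established mouse colon tumour line that the labels call epithelial. In co-culture the RAW cells sat in a transwell insert, placed into the CT26 well 8 hours after seeding, so that the lines shared soluble factors without touching; none of the groups carried an allele or received a drug according to the labels. The experiment was performed 2 times, and replicate 1 and replicate 2 of each group stand for these experiments, so that p-values measure the spread between samples of 2 experiments on 1 line each. CT26 cells were detached with trypsin before lysis and RAW cells were lysed directly in the insert, so line and harvest cannot be told apart.

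The 15 macrophage markers examined were all above the floor in both arrays of RAW co-culture and RAW alone. Their summed log2 level was 181 to 185 in RAW co-culture, 182 to 184 in RAW alone, 86.0 to 86.3 in CT26 co-culture and 85.9 to 86.1 in CT26 alone, and Ptprc, Itgam, Aif1 and Ctss were under the floor in every CT26 array. Above the floor in both arrays were 7 of the 15 in CT26 co-culture and 9 in CT26 alone, among which Cd14 read 10.19 and 10.29 log2 units in CT26 alone. Of 15 epithelial markers 9 were above the floor in both arrays of CT26 alone, against 5 in RAW alone. In CT26 alone Krt20 read 11.53 and 11.55 log2 units, Tjp1 11.62 and 11.67, and Krt18 10.18 and 10.20. The epithelial markers Cdh1, Ocln, Dsp, Krt7 and Vil1 were under the floor in CT26 alone and in CT26 co-culture. Of 15 mesenchymal markers 11 were above the floor in both arrays of CT26 alone, against 7 in RAW alone. The median level of the mesenchymal list was 9.585 log2 units in CT26 alone and 5.245 in RAW alone. That of the epithelial list was 5.735 in CT26 alone and 5.011 in RAW alone.

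Growth factors of these families are secreted or shed from the cell surface and bind receptors on the same or a neighbouring cell. Most of the receptors listed are tyrosine kinases: the EGF receptor family (Egfr, Erbb2, Erbb3), the FGF, PDGF and IGF receptors, the HGF receptor Met, and Axl, Mertk and Tyro3, which bind Gas6. The BMP receptors are serine/threonine kinases, and Lifr and Osmr belong to the cytokine receptors. Igf2r is a clearance and sorting receptor without kinase activity, and the IGF-binding proteins hold IGFs in the extracellular space. Macrophages are a known source of IGF-1 and PDGF-B for neighbouring cells in tissue repair and in tumours. All values below are messenger RNA levels and say nothing of secreted or surface protein.

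The first question was which line carried each ligand and which its receptor. Between RAW alone and CT26 alone, 23 of the 34 tested genes passed limma's adjusted p of 0.05, 4 higher in RAW alone and 19 lower. Over all genes tested, 34.6% passed in this contrast, with 17.0% higher and 17.6% lower. The share among the tested growth factor genes was 67.6%, but a gene that passed the filter on low values only through the line where it is high had to differ between the lines. The median difference was -1.18 log2 units over the 34 genes and -0.05 over all genes tested. Of the 42 genes, 21 were above the floor in all 8 arrays, 7 were above it in all 4 CT26 arrays and in no RAW array, 0 showed the opposite, and 7 were under it in all 8 arrays. The 7 seen above the floor only in CT26 arrays were Ereg, Nrg1, Pdgfc, Bmp2, Axl, Met and Fgfr1. The share of all genes with each of these patterns was not counted, so the counts are not set apart from other genes. Between RAW co-culture and CT26 co-culture, 22 of the 34 passed, 4 higher in RAW co-culture and 18 lower, against 34.8% of all genes, 17.7% higher and 17.0% lower. With separate blocks for the experiments in each line, 27 and 28 passed in these contrasts, against 58.6% and 58.0% of all genes, and with a block common to both lines also 27 and 28, against 52.9% and 52.1%. In these contrasts separate blocks also take out how far the line difference varied between the experiments, so their p-values leave out that spread. The arrays compare RNA pools brought to a common distribution, so fewer expressing cells and less RNA per expressing cell cannot be told apart.

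**Figure D1:**
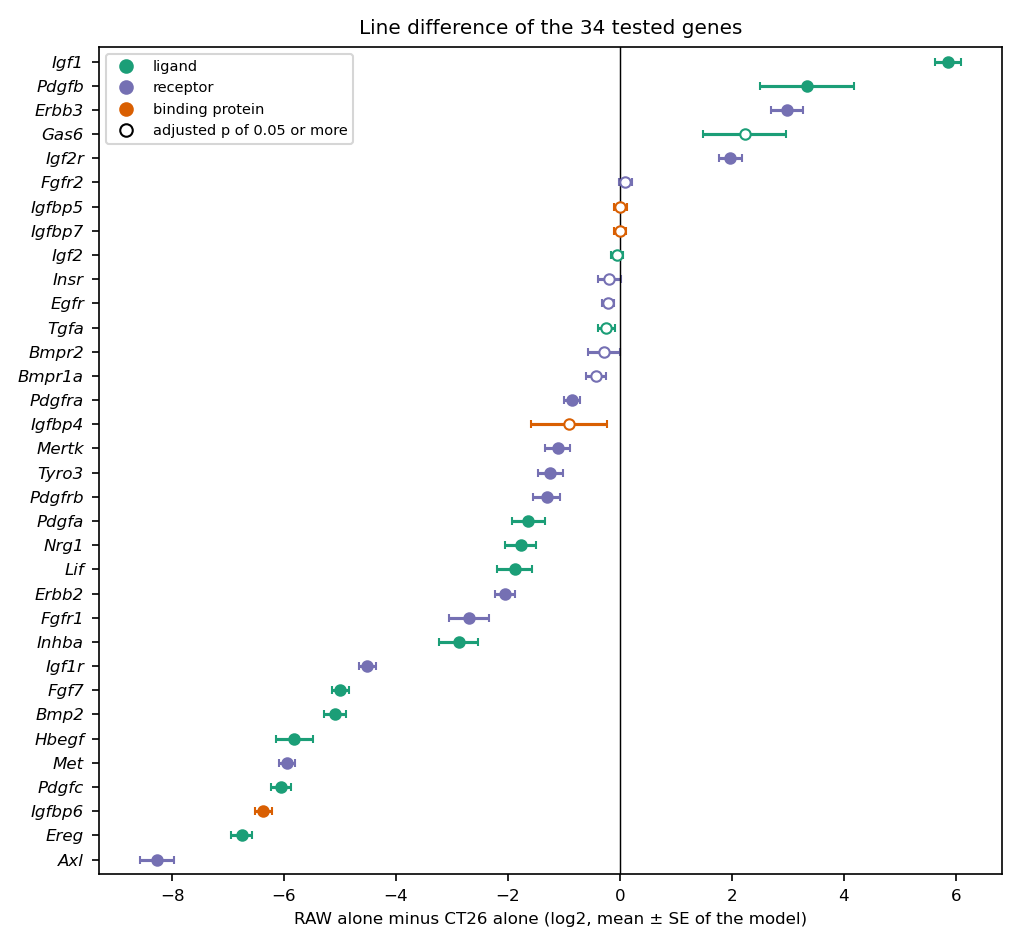
RAW alone minus CT26 alone on the log2 scale (horizontal axis) for the 34 tested genes (vertical axis, in order of the difference). Points are model differences, bars their SE, colours the role, and open points an adjusted p of 0.05 or more without a block. The 4 genes called higher in RAW alone, Igf1, Pdgfb, Erbb3 and Igf2r, stand right of 0, and the difference of Axl, -8.27, is the farthest left.

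Among the 19 ligands, 14 were tested. Between RAW alone and CT26 alone 2 were higher in RAW, Igf1 and Pdgfb, and 9 were lower. Over all genes tested, 17.0% were higher and 17.6% lower in this contrast. Igf1 encodes the growth factor that signals through Igf1r. Its probe set read 10.27 and 10.80 log2 units in RAW co-culture, 12.36 and 12.15 in RAW alone, 6.23 and 5.96 in CT26 co-culture, and 6.63 and 6.17 in CT26 alone. Every RAW array was above every CT26 array. RAW alone was higher than CT26 alone by 5.86 ± 0.24 log2 units (SE; 57.9-fold; limma adjusted p = 3.17e-06), and RAW co-culture was higher than CT26 co-culture by 4.44 ± 0.24 (21.7-fold; adjusted p = 1.16e-05). The other 3 Igf1 probe sets differed in the same direction, by 4.64 to 5.35 log2 units between RAW alone and CT26 alone.

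Igf1 and the PDGF-A gene Pdgfa were among the 3 genes that passed as lower in RAW co-culture with the experiment shift modelled per line. With a shift common to both lines only Igf1 passed, as described further on. The promoters of Igf1 and Pdgfa are shown with the motifs found in them. The sequences are from RefSeq on GRCm38.p6, run 5′ to 3′ on the gene's strand, and cover 250 bases before to 50 after an annotated start. Igf1 lies at chr10:87860861-87861160 on the plus strand. Pdgfa has 2 annotated starts on the minus strand, at chr5:138994232-138994531 (called Pdgfa start A) and chr5:138994895-138995194 (called Pdgfa start B). Capitals mark the matches on either strand to 5 motifs: the TATA box TATAAA, the GC box GGGCGG, the AP-1 site TGANTCA, the STAT site TTCNNNGAA and the E box CACGTG.
Igf1: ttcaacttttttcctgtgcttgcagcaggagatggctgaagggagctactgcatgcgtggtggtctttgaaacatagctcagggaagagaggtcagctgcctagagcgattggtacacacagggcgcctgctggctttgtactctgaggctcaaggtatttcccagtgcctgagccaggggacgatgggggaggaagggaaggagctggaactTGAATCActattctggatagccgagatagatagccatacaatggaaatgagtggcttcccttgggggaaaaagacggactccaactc
Pdgfa start A: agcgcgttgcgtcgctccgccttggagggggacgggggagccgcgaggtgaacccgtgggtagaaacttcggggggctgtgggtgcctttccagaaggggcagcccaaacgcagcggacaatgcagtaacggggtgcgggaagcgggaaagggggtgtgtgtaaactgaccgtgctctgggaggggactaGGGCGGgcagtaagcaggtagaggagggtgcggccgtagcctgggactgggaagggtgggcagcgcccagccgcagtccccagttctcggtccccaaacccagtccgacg
Pdgfa start B: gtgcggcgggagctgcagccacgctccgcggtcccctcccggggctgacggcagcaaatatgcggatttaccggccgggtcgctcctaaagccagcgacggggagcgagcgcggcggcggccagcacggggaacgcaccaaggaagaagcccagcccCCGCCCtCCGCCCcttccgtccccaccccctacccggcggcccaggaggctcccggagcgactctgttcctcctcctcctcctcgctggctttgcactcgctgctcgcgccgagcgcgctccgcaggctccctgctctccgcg
The Igf1 promoter held 1 AP-1 match, TGAATCA, a motif found in 7.81% of the 32851 promoters of the same length. Pdgfa start A held 1 GC box and start B held 2, and 35.7% of all promoters held at least 1. No match overlapped another. The TATA box (13.6% of all promoters), the STAT site (8.3%) and the E box (7.15%) had no match in these 3 windows. A match describes these letters in this window and is not a measured site.

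Pdgfb, which encodes the PDGF-B chain, was the other ligand higher in RAW. It read 7.05 and 9.33 log2 units in RAW co-culture, 8.02 and 10.03 in RAW alone, 5.13 and 5.45 in CT26 co-culture, and 5.84 and 5.51 in CT26 alone. All RAW arrays were above all CT26 arrays, and in both RAW groups the array of experiment 2 was higher than that of experiment 1. The difference between RAW alone and CT26 alone was 3.35 ± 0.84 log2 units (SE; 10.2-fold; limma adjusted p = 0.0201), and that between RAW co-culture and CT26 co-culture was 2.90 ± 0.84 (adjusted p = 0.0348), with 1 of the 2 CT26 co-culture arrays above the floor. Single arrays decided these calls: the first had an adjusted p of 0.0966 without RAW alone replicate 2 (2.34 log2 units), 0.0691 without CT26 alone replicate 1 and 0.0956 without CT26 alone replicate 2. The second had 0.145 without RAW co-culture replicate 2 (1.76 log2 units), 0.126 and 0.0978 without CT26 co-culture replicate 1 or 2, and 0.0575 and 0.0574 without CT26 alone replicate 1 or 2. By the second Pdgfb probe set, RAW alone exceeded CT26 alone by 1.94 log2 units.

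Gas6, the ligand of the TAM receptors Tyro3, Axl and Mertk, read 6.83 and 8.84 log2 units in RAW co-culture, 7.16 and 8.84 in RAW alone, 5.58 and 5.58 in CT26 co-culture, and 5.49 and 6.06 in CT26 alone. All RAW arrays were above all CT26 arrays, and in both RAW groups experiment 2 was the higher. The difference between RAW alone and CT26 alone was 2.23 ± 0.73 log2 units (SE; 95% interval 0.48 to 3.97), with a limma adjusted p of 0.0555 without a block and 1.42e-05 with separate blocks. A block is a model term that takes out the shift between the experiments, here with its own size in each line. Separate blocks thereby leave out how far a line difference varied between the experiments. For Gas6 that difference was 1.67 in experiment 1 and 2.78 in experiment 2. With the common block the limma adjusted p for Gas6 was 0.00524. A second Gas6 probe set, close to the floor in every array, differed by -0.13.

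The ligands that were lower in RAW came from several families. Ereg, encoding the EGF receptor ligand epiregulin, read 4.73 and 4.46 log2 units in RAW co-culture, 4.90 and 4.44 in RAW alone, 11.31 and 11.04 in CT26 co-culture, and 11.43 and 11.43 in CT26 alone. Since Ereg was under the floor in every RAW array, its level in RAW alone was at least 73.7-fold lower than in CT26 alone (limma adjusted p = 7.3e-07). Hbegf, encoding a membrane-anchored EGF receptor ligand that is shed by proteases, read 4.95 and 6.10 in RAW co-culture, 5.68 and 5.78 in RAW alone, 11.89 and 11.91 in CT26 co-culture, and 11.54 and 11.55 in CT26 alone. RAW alone was 56.3-fold lower than CT26 alone for Hbegf (-5.81 ± 0.33 log2 units, SE; adjusted p = 1.5e-05). Nrg1, encoding neuregulin-1, a ligand of Erbb3, read 5.22 and 4.58 in RAW co-culture, 5.08 and 4.88 in RAW alone, 7.03 and 6.40 in CT26 co-culture, and 6.84 and 6.68 in CT26 alone. It was at least 2.89-fold lower in RAW alone than in CT26 alone (adjusted p = 0.00241). The EGF-family genes thus stood higher in CT26 at 3 of the 4 measured ligands. The fourth, Tgfa, encoding transforming growth factor alpha, read 6.44 and 6.20 in RAW co-culture, 6.50 and 6.26 in RAW alone, 6.55 and 6.56 in CT26 co-culture, and 6.51 and 6.74 in CT26 alone, and its line difference of -0.25 ± 0.15 did not pass (95% interval -0.61 to 0.11; adjusted p = 0.262). Another Tgfa probe set gave -1.80, so the probe sets of this gene disagree.

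Fgf7, encoding keratinocyte growth factor, read 5.60 and 5.60 log2 units in RAW co-culture, 5.67 and 5.26 in RAW alone, 10.37 and 10.45 in CT26 co-culture, and 10.48 and 10.44 in CT26 alone. The lines were far apart, with RAW alone 31.9-fold lower than CT26 alone (limma adjusted p = 9.18e-07). In the PDGF family, Pdgfc, encoding the PDGF-C chain, read 4.05 and 3.81 in RAW co-culture, 4.20 and 3.80 in RAW alone, 9.93 and 9.70 in CT26 co-culture, and 10.14 and 9.99 in CT26 alone. This put Pdgfc at least 28.6-fold lower in RAW alone than in CT26 alone (adjusted p = 8.18e-07). Pdgfa, encoding the PDGF-A chain, was present in both lines, at 6.91 and 7.38 in RAW co-culture, 7.92 and 7.99 in RAW alone, 9.40 and 10.09 in CT26 co-culture, and 9.30 and 9.88 in CT26 alone. The Pdgfa difference was -1.64 ± 0.29 between RAW alone and CT26 alone (SE; 3.11-fold lower in RAW; adjusted p = 0.00486) and -2.60 ± 0.29 between RAW co-culture and CT26 co-culture (6.07-fold lower; adjusted p = 0.000523). The chains of 1 growth factor family were therefore split between the lines, with Pdgfb higher in RAW and Pdgfa and Pdgfc higher in CT26.

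Bmp2, encoding a bone morphogenetic protein, read 4.41 and 4.11 log2 units in RAW co-culture, 4.31 and 4.39 in RAW alone, 9.90 and 9.41 in CT26 co-culture, and 9.57 and 9.32 in CT26 alone. It was under the floor in every RAW array and at least 18.6-fold lower in RAW alone than in CT26 alone (limma adjusted p = 2.83e-06). Inhba, encoding the activin beta A subunit, read 6.63 and 6.41 in RAW co-culture, 6.08 and 6.72 in RAW alone, 9.26 and 9.74 in CT26 co-culture, and 8.84 and 9.72 in CT26 alone. Here both lines were above the floor and RAW alone was 7.37-fold lower (adjusted p = 0.000669). Lif, encoding leukaemia inhibitory factor, read 5.15 and 5.34 in RAW co-culture, 5.23 and 5.37 in RAW alone, 6.98 and 7.74 in CT26 co-culture, and 6.82 and 7.55 in CT26 alone, a 3.68-fold lower level in RAW alone than in CT26 alone (adjusted p = 0.00322). Its receptor Lifr was under the floor in all 8 arrays, as was Osmr.

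Igf2, encoding the other IGF, lay between 6.40 and 6.68 log2 units in all 8 arrays, with a line difference of -0.06 ± 0.11 (95% interval -0.31 to 0.20), and its second probe set was under the floor everywhere. Fgf1, Fgf2 and Bmp4 were under the floor in all 8 arrays. Hgf, the ligand of Met, lay between 4.94 and 5.48, above the floor in 2 of 4 RAW arrays and 2 of 4 CT26 arrays.

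**Figure D2:**
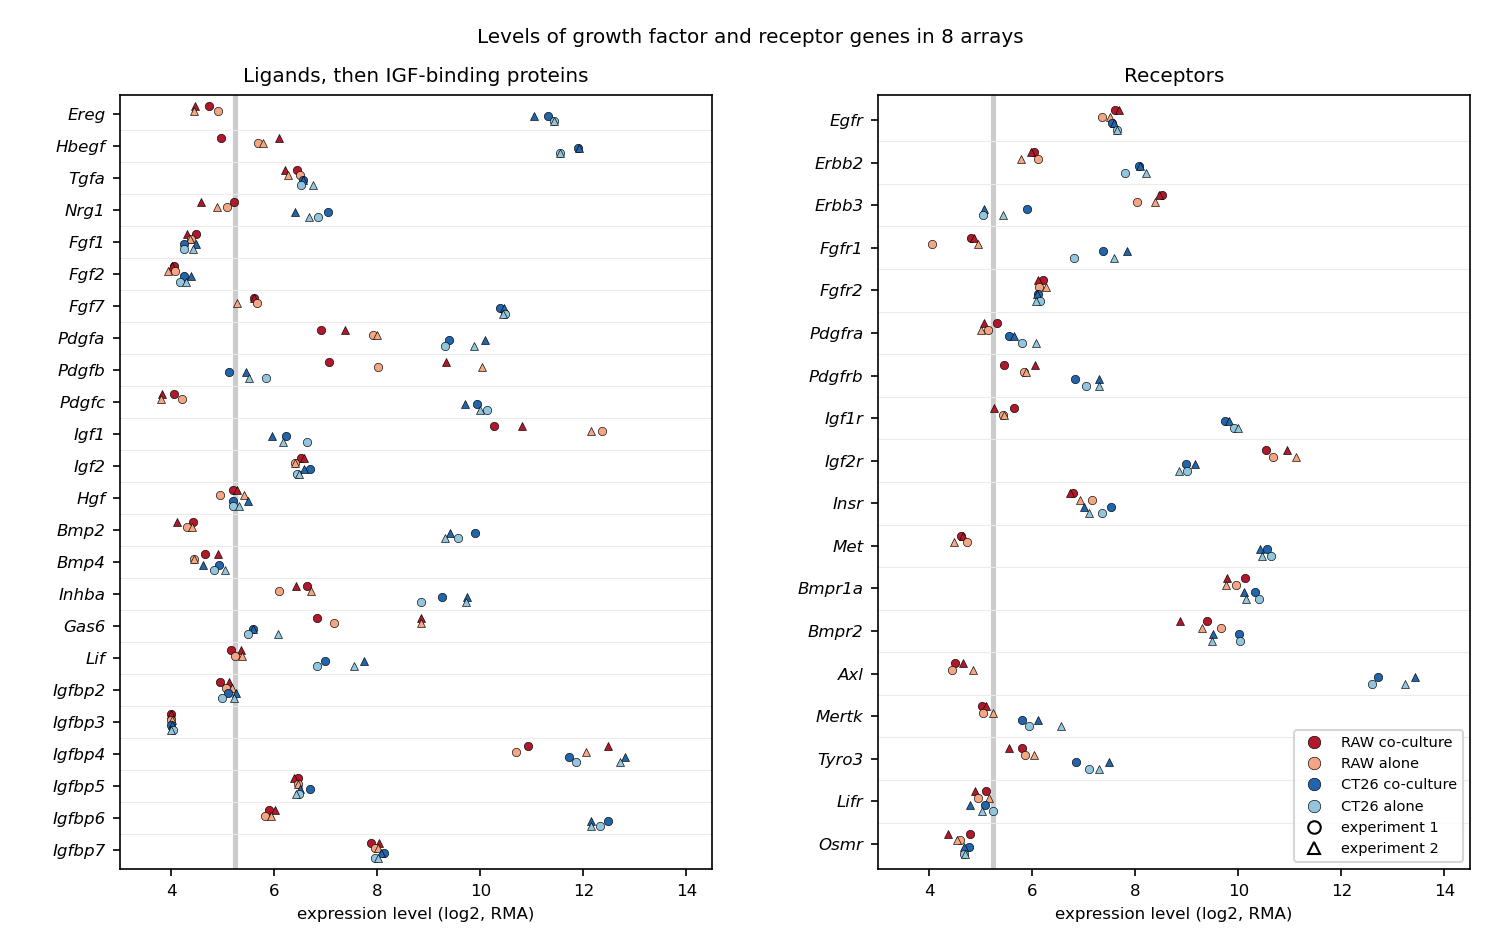
Expression level (log2) of the 42 genes in each of the 8 arrays. Colours give the 4 groups, circles experiment 1, triangles experiment 2, and the grey band the floor of 5.21 to 5.28. For Ereg, Pdgfc, Met and Axl all RAW arrays lie left of the band and all CT26 arrays far right of it, and for Igf1 the RAW co-culture arrays lie left of the RAW alone arrays.

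Of the 18 receptors, 16 were tested, and between RAW alone and CT26 alone 2 were higher in RAW and 9 lower. In this contrast 17.0% of all genes tested were higher and 17.6% lower. Axl, a TAM receptor kinase that macrophages in many tissues express, had the widest line difference among the 34 genes. It read 4.50 and 4.66 log2 units in RAW co-culture, 4.43 and 4.85 in RAW alone, 12.71 and 13.43 in CT26 co-culture, and 12.60 and 13.23 in CT26 alone. All RAW arrays were under the floor, and Axl was at least 206-fold lower in RAW alone than in CT26 alone (limma adjusted p = 2.2e-06) and at least 230-fold lower in RAW co-culture than in CT26 co-culture (adjusted p = 2.02e-06). A second Axl probe set was under the floor in all 8 arrays. The other TAM receptors differed less. Tyro3 read 5.80 and 5.55 in RAW co-culture, 5.86 and 6.03 in RAW alone, 6.85 and 7.49 in CT26 co-culture, and 7.09 and 7.29 in CT26 alone (RAW alone 2.37-fold lower than CT26 alone, limma adjusted p = 0.00478). A second Tyro3 probe set, under the floor in every RAW array, gave a wider gap of -3.47 log2 units. Mertk read 5.03 and 5.10 in RAW co-culture, 5.03 and 5.24 in RAW alone, 5.79 and 6.11 in CT26 co-culture, and 5.93 and 6.56 in CT26 alone (-1.11 ± 0.23, SE; adjusted p = 0.00832). Of the RAW arrays only replicate 2 of RAW alone was above the floor for Mertk, so no exact fold is given. All 3 TAM receptors were thus higher in CT26, the line with the lower Gas6 readings. In co-culture, where both RAW arrays were under the floor, the Mertk difference of -0.88 ± 0.23 (at least 1.65-fold lower) had an adjusted p of 0.0216, and of 0.0878, 0.0689 and 0.118 without RAW co-culture replicate 1, RAW co-culture replicate 2 or CT26 co-culture replicate 2.

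Igf1r, the receptor kinase for IGF-1, read 5.64 and 5.25 log2 units in RAW co-culture, 5.44 and 5.46 in RAW alone, 9.73 and 9.82 in CT26 co-culture, and 9.92 and 10.002 in CT26 alone. It was the reverse of its ligand: RAW alone was 22.8-fold lower than CT26 alone for Igf1r (-4.51 ± 0.15 log2 units, SE; limma adjusted p = 1.43e-06). Of the other 4 Igf1r probe sets, 3 differed by -1.96 to -3.99 and 1, under the floor in all arrays but 1, by -0.49. Igf2r, which takes up IGF-2 and sorts lysosomal enzymes, went the other way. It read 10.54 and 10.94 in RAW co-culture, 10.67 and 11.13 in RAW alone, 8.98 and 9.17 in CT26 co-culture, and 8.997 and 8.86 in CT26 alone, 3.92-fold higher in RAW alone than CT26 alone (adjusted p = 0.000328). Insr, the insulin receptor, read 6.79 and 6.72 in RAW co-culture, 7.16 and 6.92 in RAW alone, 7.52 and 6.999 in CT26 co-culture, and 7.35 and 7.10 in CT26 alone. The Insr ranges of RAW alone and CT26 alone overlapped and the difference of -0.19 ± 0.20 did not pass (95% interval -0.66 to 0.29; adjusted p = 0.528). In co-culture the Insr difference of -0.50 ± 0.20 had an adjusted p of 0.0991 without a block and of 0.00453 with separate blocks.

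Met, the receptor of HGF, read 4.62 and 4.65 log2 units in RAW co-culture, 4.73 and 4.47 in RAW alone, 10.56 and 10.42 in CT26 co-culture, and 10.64 and 10.46 in CT26 alone. The receptor was under the floor in every RAW array, at least 40-fold lower in RAW alone than in CT26 alone (limma adjusted p = 3.55e-07), while its ligand Hgf did not pass the filter in either line.

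Within the EGF receptor family, the 3 receptors had 3 patterns. Erbb3, which lacks strong kinase activity of its own and binds neuregulins, read 8.51 and 8.45 log2 units in RAW co-culture, 8.04 and 8.37 in RAW alone, 5.90 and 5.06 in CT26 co-culture, and 5.03 and 5.43 in CT26 alone. RAW alone was above CT26 alone by 2.98 ± 0.29 log2 units (SE; limma adjusted p = 0.00023). Erbb3 was above the floor in only 1 of the 2 arrays of each CT26 group, so no exact fold is given, and a second probe set was under the floor in all 8 arrays. Erbb2, the family member without a known ligand and the main partner of Erbb3, read 6.03 and 5.98 in RAW co-culture, 6.11 and 5.78 in RAW alone, 8.07 and 8.09 in CT26 co-culture, and 7.80 and 8.20 in CT26 alone. Here RAW alone was 4.16-fold lower than CT26 alone (adjusted p = 0.000123). Egfr itself read 7.60 and 7.68 in RAW co-culture, 7.35 and 7.50 in RAW alone, 7.54 and 7.59 in CT26 co-culture, and 7.64 and 7.64 in CT26 alone. The lines were close, with a difference of -0.22 ± 0.11 that did not pass (95% interval -0.48 to 0.05; adjusted p = 0.198). Of the 6 other Egfr probe sets, 3 were under the floor in all 8 arrays, and all 7 gave line differences between -0.22 and 0.10.

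Among the PDGF receptors, Pdgfra, which binds PDGF-A and PDGF-C and also PDGF-B, read 5.32 and 5.07 log2 units in RAW co-culture, 5.15 and 5.01 in RAW alone, 5.55 and 5.65 in CT26 co-culture, and 5.80 and 6.07 in CT26 alone. RAW alone was under the floor in both arrays and at least 1.64-fold lower than CT26 alone (limma adjusted p = 0.00438). In co-culture the difference was -0.41 ± 0.15, with an adjusted p of 0.0803 without a block, 0.0448 with the common block and 0.00695 with separate blocks. Pdgfrb, the main PDGF-B receptor, read 5.44 and 6.05 in RAW co-culture, 5.84 and 5.87 in RAW alone, 6.84 and 7.30 in CT26 co-culture, and 7.04 and 7.30 in CT26 alone, 2.48-fold lower in RAW alone than in CT26 alone (adjusted p = 0.00537). A second Pdgfrb probe set gave a wider gap, -4.93. Both PDGF receptors were thus higher in CT26, the line with more Pdgfa and Pdgfc and less Pdgfb.

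Fgfr1, an FGF receptor kinase, read 4.81 and 4.87 log2 units in RAW co-culture, 4.06 and 4.95 in RAW alone, 7.37 and 7.84 in CT26 co-culture, and 6.81 and 7.58 in CT26 alone. It was at least 3.91-fold lower in RAW alone than in CT26 alone (limma adjusted p = 0.0012). Fgfr2, whose epithelial splice form binds Fgf7, lay between 6.07 and 6.27 in all 8 arrays, with a line difference of 0.09 ± 0.12 (95% interval -0.18 to 0.37), and its other 2 probe sets were under the floor throughout. The BMP receptors gave no settled line difference. Bmpr1a read 10.14 and 9.77 in RAW co-culture, 9.95 and 9.76 in RAW alone, 10.33 and 10.11 in CT26 co-culture, and 10.41 and 10.16 in CT26 alone. Bmpr2 read 9.40 and 8.87 in RAW co-culture, 9.66 and 9.29 in RAW alone, 10.0045 and 9.51 in CT26 co-culture, and 10.04 and 9.48 in CT26 alone. Their differences of -0.43 ± 0.18 for Bmpr1a and -0.29 ± 0.29 for Bmpr2 between RAW alone and CT26 alone had limma adjusted p-values of 0.108 and 0.499, and of 0.00448 and 0.0264 with separate blocks. Averaged over the probe sets of each gene, the signs turned, to 0.07 for Bmpr1a and 0.05 for Bmpr2.

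Of the 6 IGF-binding proteins, 4 were tested and 1 passed between RAW alone and CT26 alone, where 34.6% of all genes passed. Igfbp6, which binds IGF-2 with preference over IGF-1, read 5.89 and 6.01 log2 units in RAW co-culture, 5.81 and 5.92 in RAW alone, 12.47 and 12.15 in CT26 co-culture, and 12.33 and 12.15 in CT26 alone. The lines did not approach each other, with RAW alone 82.9-fold lower than CT26 alone (limma adjusted p = 3.58e-07). Igfbp4, which holds IGF-1 until the protease Pappa cleaves it, read 10.92 and 12.47 in RAW co-culture, 10.69 and 12.05 in RAW alone, 11.72 and 12.80 in CT26 co-culture, and 11.86 and 12.71 in CT26 alone. In every group the Igfbp4 array of experiment 2 was higher than that of experiment 1. The line difference of -0.91 ± 0.68 had an adjusted p of 0.358 without a block and of 0.000198 with separate blocks. Igfbp5 lay between 6.37 and 6.69 and Igfbp7 between 7.87 and 8.13 in all arrays, each with other probe sets under the floor, and their line differences were 0.01 ± 0.12 and 0.00 ± 0.11. Igfbp2 and Igfbp3 were under the floor in all 8 arrays.

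Set side by side by calls between RAW alone and CT26 alone, the pairs with a called ligand fell into 3 arrangements of the lines. Ligand and receptor were higher in opposite lines for Igf1 (RAW) with Igf1r (CT26), for Pdgfb (RAW) with Pdgfrb and Pdgfra (CT26), and for Nrg1 (CT26) with Erbb3 (RAW). Gas6 with Axl, Mertk and Tyro3 had the same arrangement in the readings, but the Gas6 call rested on the block. Ligand and receptor were both higher in CT26 for Pdgfa and Pdgfc with Pdgfra. In co-culture the Pdgfra difference did not pass without a block (limma adjusted p = 0.0803), and single arrays decided the Pdgfb calls. For Ereg and Hbegf with Egfr, Fgf7 with Fgfr2, and Bmp2 with Bmpr1a and Bmpr2, the ligand was higher in CT26 and no line difference of the receptor passed, and for Lif the receptor Lifr was not tested. No listed pair had both partners called higher in RAW.

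**Figure D3:**
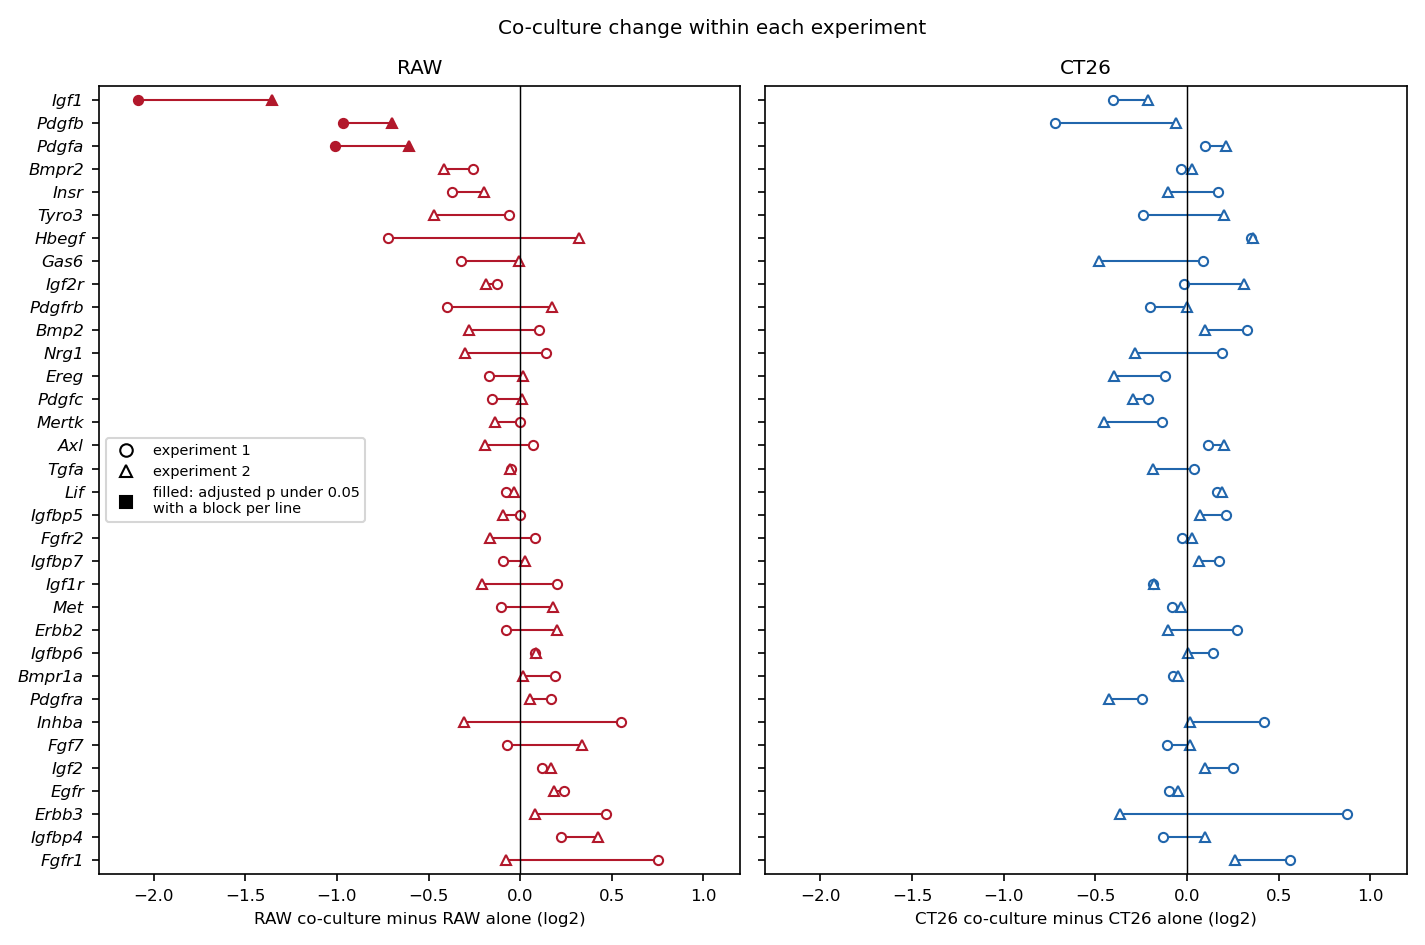
Co-culture minus alone (log2, horizontal axes) within experiment 1 (circles) and experiment 2 (triangles) for the 34 tested genes, in RAW (left) and CT26 (right), with a line joining the experiments. Filled symbols mark an adjusted p under 0.05 with separate blocks: Igf1, Pdgfa and Pdgfb in RAW, and no gene in CT26.

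The next question was whether sharing medium with CT26 changed these genes in RAW. Without a block, 0 of the 34 genes passed limma's adjusted p of 0.05 in RAW co-culture against RAW alone, where 0.25% of all genes tested passed, and 2 of the 34 had an unadjusted p under 0.05. With a block common to both lines, 1 gene passed, Igf1, against 1.11% of all genes. With separate blocks 3 passed, all lower, the ligands Igf1, Pdgfa and Pdgfb, against 3.56% of all genes in either direction and 2.01% lower. The median change was -0.05 log2 units over the 34 genes and 0.01 over all genes tested. In both experiments 7 genes were higher and 11 lower, against 32.5% and 29.1% of all genes, and the groups did not overlap for 7 of the 34, against 26.5% of all genes. All 3 genes were ligands, and 0 of the 16 tested receptors and 0 of the 4 tested binding proteins passed under any of the 3 models.

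Igf1, at 10.27 and 10.80 log2 units in RAW co-culture against 12.36 and 12.15 in RAW alone, showed the largest change of the 34 genes. Both co-culture arrays were below both arrays of RAW alone, with a change of -2.08 in experiment 1 and -1.36 in experiment 2. The change was -1.72 ± 0.24 (SE; 95% interval -2.28 to -1.16), a 3.29-fold lower level. The limma adjusted p was 0.0585 without a block, 0.0226 with the common block and 0.00308 with separate blocks, and it ranged from 0.104 to 0.334 when single arrays were left out of the model without a block. All 4 Igf1 probe sets were lower in both experiments, with mean changes between -2.33 and -1.72. The probe set with the largest of these changes read 8.07 and 9.02 in RAW co-culture against 10.81 and 10.94 in RAW alone. Even at the lower level, Igf1 in RAW co-culture remained above every CT26 array.

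Pdgfa read 6.91 and 7.38 log2 units in RAW co-culture against 7.92 and 7.99 in RAW alone. The groups did not overlap, and the change was -1.01 in experiment 1 and -0.61 in experiment 2. The change of -0.81 ± 0.29 (SE; 1.75-fold lower) had a limma adjusted p of 0.823 without a block and of 0.014 with separate blocks. With the common block the limma adjusted p for the Pdgfa change was 0.0732. The second Pdgfa probe set read 7.08 and 7.11 in RAW co-culture against 7.72 and 7.88 in RAW alone, also without overlap. In both Pdgfa promoters shown above, the motif matches were GC boxes.

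Pdgfb read 7.05 and 9.33 log2 units in RAW co-culture against 8.02 and 10.03 in RAW alone. The groups overlapped, since experiment 2 was higher in both, but within each experiment co-culture was lower, with changes of -0.97 and -0.70. The change of -0.83 ± 0.84 (SE; 1.78-fold lower) had a limma adjusted p of 1.0 without a block and of 0.0405 with separate blocks, and it turned to 0.30 without RAW co-culture replicate 1 and to 0.17 without RAW alone replicate 2, which unbalances the experiments. With the common block the limma adjusted p for the Pdgfb change was 0.643. The second Pdgfb probe set read 6.17 and 7.72 in RAW co-culture against 6.42 and 8.35 in RAW alone.

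**Figure D4:**
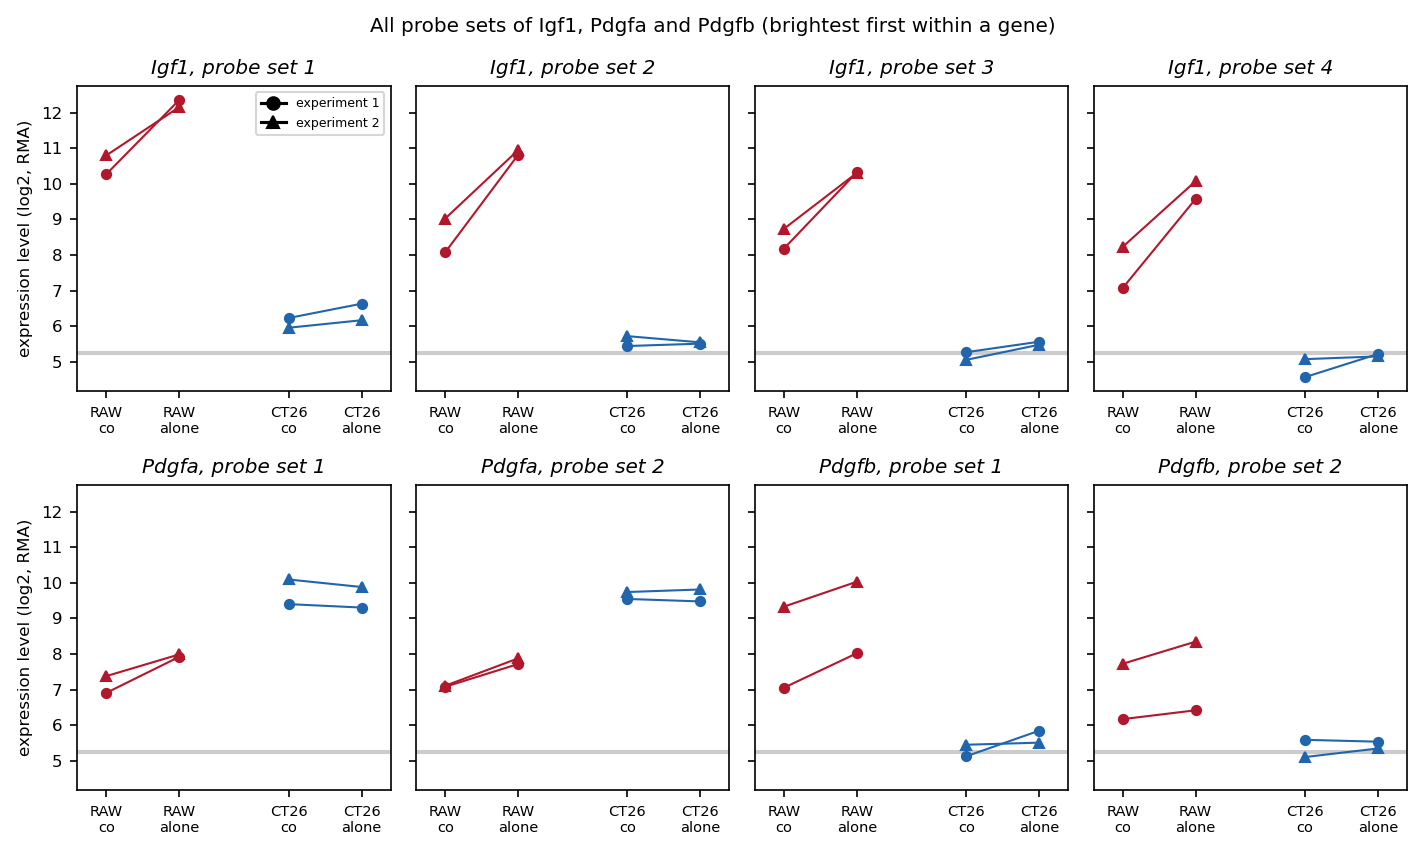
Expression level (log2, vertical axes) of all 4 probe sets of Igf1 and of both probe sets of Pdgfa and Pdgfb, in the 4 groups (horizontal axes; red RAW, blue CT26), with lines joining the arrays of experiment 1 (circles) and of experiment 2 (triangles) and the floor in grey. In each of the 8 panels RAW co-culture is lower than RAW alone within both experiments.

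The other 3 of the 6 largest changes in RAW did not pass under any of the 3 models. Bmpr2 read 9.40 and 8.87 log2 units in RAW co-culture against 9.66 and 9.29 in RAW alone (-0.34 ± 0.29; limma adjusted p = 0.103 with separate blocks). Fgfr1, under the floor in all 4 arrays, read 4.81 and 4.87 in RAW co-culture against 4.06 and 4.95 in RAW alone (0.34 ± 0.36). Igfbp4 read 10.92 and 12.47 in RAW co-culture against 10.69 and 12.05 in RAW alone (0.32 ± 0.68; adjusted p = 0.156 with separate blocks). None of the other tested receptors passed in RAW either. The difference between co-culture and alone was 0.28 ± 0.29 for Erbb3 (SE; 95% interval -0.41 to 0.96), -0.16 ± 0.20 for Igf2r (-0.64 to 0.33) and 0.21 ± 0.11 for Egfr (-0.06 to 0.48). For Bmpr2 the interval was -1.02 to 0.34. The intervals of Erbb3 and Bmpr2 include changes as large in size as those of Pdgfa and Pdgfb. Gas6 had a difference of -0.17 ± 0.73, with an interval of -1.91 to 1.58 that leaves its direction unsettled.

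The median difference of the macrophage marker list between RAW co-culture and RAW alone was -0.07 log2 units. Of the 15, 0 passed without a block. With separate blocks 13.3% of the list passed, against 3.56% of all genes. Fcgr1, an Fc receptor gene, was then higher in RAW co-culture (11.90 and 11.87 log2 units, against 10.20 and 10.04 in RAW alone, 1.77 ± 0.21, limma adjusted p = 0.00722). Adgre1, a macrophage surface receptor gene, was lower (10.15 and 10.73, against 11.13 and 11.23 in RAW alone, -0.75 ± 0.13, limma adjusted p = 0.0306). The part of Fcgr1 and Adgre1 in the Igf1 and PDGF values was not tested.

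In CT26 cells that shared medium with RAW, 0 of the 34 genes passed limma's adjusted p of 0.05 under any of the 3 models, where 0.0% of all genes tested passed. The number with an unadjusted p under 0.05 was 0 without a block, 2 with the common block and 5 with separate blocks, and the smallest adjusted p with separate blocks was 0.647. The median change was -0.01 log2 units over both the 34 genes and all genes tested. In both experiments 11 genes were higher and 10 lower, against 23.8% and 30.1% of all genes, and the groups did not overlap for 10 of the 34, against 21.0% of all genes.

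The 6 largest changes in CT26 are given as values. Hbegf read 11.89 and 11.91 log2 units in CT26 co-culture against 11.54 and 11.55 in CT26 alone, higher in both experiments and without overlap (0.35 ± 0.33, SE; 95% interval -0.42 to 1.13; limma adjusted p = 0.92 with separate blocks). Its second probe set read 9.71 and 9.72 in CT26 co-culture against 9.41 and 9.83 in CT26 alone, with overlap. Pdgfra read 5.55 and 5.65 in CT26 co-culture against 5.80 and 6.07 in CT26 alone, lower in both experiments and without overlap (-0.34 ± 0.15; adjusted p = 0.647 with separate blocks). Pdgfb, near the floor in CT26, read 5.13 and 5.45 in CT26 co-culture against 5.84 and 5.51 in CT26 alone. Fgfr1 read 7.37 and 7.84 in CT26 co-culture against 6.81 and 7.58 in CT26 alone (0.41 ± 0.36), with overlap. Igf1 read 6.23 and 5.96 in CT26 co-culture against 6.63 and 6.17 in CT26 alone (-0.31 ± 0.24), and Mertk read 5.79 and 6.11 in CT26 co-culture against 5.93 and 6.56 in CT26 alone (-0.30 ± 0.23), both with overlap.

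Receptors whose ligands read higher in RAW did not pass in CT26. The difference between CT26 co-culture and CT26 alone was -0.18 ± 0.15 for Igf1r (SE; 95% interval -0.54 to 0.18), 0.16 ± 0.31 for Axl (-0.57 to 0.88) and -0.10 ± 0.24 for Pdgfrb (-0.67 to 0.47). It was -0.34 ± 0.15 for Pdgfra (-0.70 to 0.02), -0.30 ± 0.23 for Mertk (-0.83 to 0.24) and -0.02 ± 0.22 for Tyro3 (-0.55 to 0.51). The second Pdgfrb probe set, singled out after its values were seen, read 7.82 and 8.00 in CT26 co-culture against 8.50 and 8.62 in CT26 alone, a change of -0.65 without overlap, so the Pdgfrb probe sets disagree in size. The co-culture difference in CT26 was -0.06 ± 0.14 log2 units for Met and 0.07 ± 0.15 for Igfbp6, the binding protein higher in CT26.

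The difference between the co-culture effects of the lines was tested as an interaction, and 0 of the 34 genes passed under any of the 3 models. Without a block 0.00758% of all genes passed, with the common block 0.0834% and with separate blocks 0.743%. For Igf1 the RAW effect minus the CT26 effect was -1.41 ± 0.33 log2 units (SE; 95% interval -2.20 to -0.62; limma adjusted p = 0.821 without a block and 0.062 with separate blocks). For Pdgfa it was -0.96 ± 0.42 (adjusted p = 1.0 and 0.0642), with RAW co-culture lower in both experiments and CT26 co-culture higher in both. A difference between the lines in the co-culture change is therefore not shown for either ligand.

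Further genes of the same pathways were taken from lists of other ligands, other receptors, binding proteins with inhibitors and proteases, receptor kinase adaptors, ERK targets with feedback regulators, and BMP targets. Between RAW alone and CT26 alone 34.6% of all genes passed (17.0% higher and 17.6% lower), and the counts of these lists stand beside that share. Of 27 other ligands tested, 3 were higher and 8 lower in RAW alone than in CT26 alone (40.7%), close to the share of all genes. Fgf13, a member of the intracellular FGF homologous factors, was under the floor in CT26 alone and at least 9.75-fold higher in RAW alone (limma adjusted p = 5.66e-07), and Btc, encoding the EGF receptor ligand betacellulin, was under the floor in RAW alone and at least 11.1-fold lower there (adjusted p = 4.82e-06). Among 12 other receptors, 1 was higher, the interleukin-6 receptor gene Il6ra (1.87; adjusted p = 0.00531), and 2 were lower. The genes of proteases that shed EGF receptor ligands were higher in RAW alone: Adam17 by 2.69 (adjusted p = 1.65e-05) and Adam10 by 2.37 (adjusted p = 1.9e-05), in a list of 12 with 2 higher and 6 lower (66.7%). The 6 lower genes included Fst, encoding the activin inhibitor follistatin (-5.96 ± 0.18, SE; adjusted p = 9.68e-07; above the floor in 1 of 2 RAW alone arrays), and Grem1, encoding a BMP inhibitor (-4.76 ± 0.31; adjusted p = 3.14e-05). CT26 thus carried more of both the activin and BMP ligands Inhba and Bmp2 and their inhibitors.

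Downstream of the receptors, Irs1, the adaptor that links Igf1r to PI3 kinase, read 5.40 and 4.96 log2 units in RAW alone against 10.87 and 10.82 in CT26 alone (limma adjusted p = 8.47e-07), and 1 of the 2 RAW alone arrays was above the floor. Irs2 was also lower in RAW alone (-2.53 ± 0.24, SE; adjusted p = 0.000207), and Grb2, which couples receptors to Ras, was higher (1.45 ± 0.11; adjusted p = 6.09e-05). In this list of 18 tested adaptors, 2 were higher and 6 lower (44.4%, beside 34.6% of all genes). Of 18 ERK targets and feedback regulators, 1 was higher in RAW alone, Spred1, an inhibitor of the pathway, and 10 were lower, among them Errfi1, an inhibitor of EGF receptor kinases (-4.29 ± 0.17; adjusted p = 2.61e-06), and Phlda1 (-5.27 ± 0.60; adjusted p = 0.000524). The 11 called were 61.1% of the list, and the median difference of the 18 was -2.29, beside -0.05 over all genes. Of 8 BMP targets, Smad6 (2.45 ± 0.33) and Id3 (1.31 ± 0.26) were higher and Smad7 (-1.22 ± 0.31) lower in RAW alone, all 3 past the test. These were 37.5% of the list, close to the 34.6% of all genes.

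With co-culture, 1 gene of these 6 lists passed in RAW without a block, where 0.25% of all genes tested passed. It was 1 of the 27 other ligands tested. Fgf13 read 7.01 and 7.05 log2 units in RAW co-culture against 8.53 and 8.56 in RAW alone (-1.52 ± 0.10, SE; limma adjusted p = 0.00704). With separate blocks, 3 of 18 ERK targets were higher in RAW co-culture (16.7%, where 1.55% of all genes were higher and 3.56% passed in either direction), Dusp6 (1.13 ± 0.16; adjusted p = 0.0157), Egr1 (1.11 ± 0.22; adjusted p = 0.0431) and Etv5 (0.66 ± 0.10; adjusted p = 0.0199). Without a block each of the 3 had an adjusted p of 1.0, and experiment 2 was higher than experiment 1 in both groups. Lower with separate blocks, beside Fgf13, were Smad7, Rhbdf1 and Pik3cb, where 2.01% of all genes were lower. Smad7, an inhibitor of TGF-beta and BMP signalling, changed by -0.63 ± 0.10 (limma adjusted p = 0.0243). Rhbdf1, which helps to traffic Adam17, changed by -0.66 ± 0.13 (adjusted p = 0.0441). Pik3cb, a PI3 kinase catalytic subunit, changed by -0.43 ± 0.09 (adjusted p = 0.0494). Without a block Smad7, Rhbdf1 and Pik3cb did not pass (limma adjusted p of 0.984 for Rhbdf1 and 0.541 for Pik3cb). In CT26 co-culture 0 genes of the 6 lists passed, without a block or with separate blocks, where 0.0% of all genes tested passed.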

How the data were processed

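The authors deposited log2 expression values and, per the submitters' processing notes, used RMA and affy. Their versions and a genome build: not given in the sources used here. RMA brings the arrays to a common distribution (array medians 5.88 to 5.94 log2 units), so a change in total RNA per cell cannot be seen, and it compresses low signals, so folds near the floor are understated. Levels of different probe sets were not set against each other. Precision is limited by the number of arrays. Biotin-labelled cRNA had been made from 5 µg of total RNA.

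Of 45101 probe sets, 64 array controls were left out; 34945 had 1 symbol in the platform annotation, 932 several and 9160 none, and 34741 matched RefSeq (GRCm38.p6) by Entrez identifier, with 0 symbols changed. Promoters are RefSeq's; 33 of the 43 genes had an entry.

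Group means of the 8 arrays were modelled together in limma 3.58.1 (R 4.3.3), tested on simulated data first, with two-sided tests and Benjamini-Hochberg adjustment over the 13196 genes tested (threshold 0.05). Errors are SEs of the model and intervals are 95%. In contrasts between the lines, the SEs and p-values with separate blocks leave out how far the line difference varied between the experiments. "At least" folds set the brighter group's mean against the dim group's floor. Replicate numbers mark the 2 experiments, and departures from the group mean correlated between arrays of the same number at 0.765 within RAW, 0.754 within CT26 and 0.484 to 0.561 between the lines, so the numbers were taken to pair the samples. The main model had no block; a block common to both lines and separate blocks in each line were alternatives, beside cyclic loess, other filters, averaged probe sets, a variance trend, the compared groups alone and leaving out each array.

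Per-array values are given for genes called in a co-culture contrast, the 6 largest co-culture changes per line, and ligand and receptor pairs with a called partner; other list genes are named only if called, at most 3 per direction, list and contrast. The genes, lists and tests were chosen with earlier results of these data known.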

Additional observations from a re-analysis of the deposited data

Results flagged for a closer look

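For 5 genes the arrays of RAW moved one way with co-culture in both experiments and those of CT26 the other way. The share of all genes with this pattern was not counted, so these 5 are not set apart from other genes. In both experiments 32.5% of all genes were higher and 29.1% lower in RAW co-culture, and 23.8% and 30.1% in CT26 co-culture. The difference between the lines, as the RAW effect minus the CT26 effect, was tested as an interaction and did not pass for any of the 5, with a limma adjusted p of 1.0 for each without a block.

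Pdgfa, the PDGF-A chain gene, had a difference of -0.96 log2 units, with changes of -1.01 and -0.61 in RAW and of 0.10 and 0.21 in CT26 (adjusted p = 0.0642 with separate blocks in each line). Pdgfra, its receptor, had the opposite sign, 0.45, with changes of 0.17 and 0.06 in RAW and of -0.25 and -0.43 in CT26 (adjusted p = 0.236 with separate blocks). The RAW arrays of Pdgfra, and those of Lif, lie around the floor. Egfr differed by 0.29, with 0.24 and 0.18 in RAW and -0.10 and -0.05 in CT26 (0.42 with separate blocks). For Lif the value was -0.23, with -0.08 and -0.03 in RAW and 0.16 and 0.19 in CT26 (0.518). Bmpr1a differed by 0.17, with 0.19 and 0.02 in RAW and -0.08 and -0.05 in CT26 (0.667).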

How the results depend on the processing

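The number of the 34 genes called in RAW co-culture against RAW alone was 0 without a block, 1 with the replicate block shared by the lines, 3 with the replicate block per line and 1 with the probe sets of a gene averaged (Igf1, -2.02 log2 units, limma adjusted p = 0.0397). It was 0 when any single array was left out, as it was in CT26 and for the interaction. Between RAW alone and CT26 alone the count was 22 to 24 on leaving out single arrays and 27 with either block; between RAW co-culture and CT26 co-culture it was 20 to 23, and 28 with either block. The replicate block added calls for Gas6, Igfbp4, Bmpr1a, Bmpr2 and, in co-culture, Pdgfra and Insr, and it took away no call. Averaged probe sets turned the line difference of Bmpr1a to 0.067 (alone) and 0.20 (co-culture) and that of Bmpr2 (alone) to 0.053, and the Pdgfb difference between RAW co-culture and CT26 co-culture then had an adjusted p of 0.0558. Leaving out single arrays turned the sign of 6 changes, none of them called without a block: in RAW, Fgfr1 ranged from -0.11 to 0.78, Pdgfb from -1.97 to 0.30 and Igfbp4 from -0.45 to 1.10; in CT26, Mertk from -0.61 to 0.021; the Pdgfb interaction from -1.58 to 0.69; and Igfbp4 between RAW co-culture and CT26 co-culture from -1.35 to 0.21. Individual values with arrays left out are -0.36 and -0.45 for Igfbp4 in RAW, 0.17 and 0.30 for Pdgfb in RAW, and 0.56 and 0.69 for the Pdgfb interaction. Gas6 between RAW alone and CT26 alone ranged over adjusted p-values from 0.0223 to 0.246. Over all alternatives other than leaving out an array, 515 of the recomputed results kept direction and side of the threshold, 30 came to pass, 1 ceased to pass and 3 turned sign. Cyclic loess and the absence of a filter changed no call; the stricter filter, the variance trend and fitting only the compared groups each added a Gas6 call. Under the stricter filter some genes had no value. The cause of these changes was not tested.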
